A study of Mus musculus with 24 samples.

Results

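The genes Acly, Acaca, Fasn, Elovl6, Scd1, Scd2, Gpam, Dgat2, Srebf1 and Thrsp carry out or control the making of fatty acids and triglycerides. These 10 genes were chosen by name for that role and matched to the gene names in the array files, where they had 17 of the 41174 probes measured. For each gene the probe with the highest mean intensity over both dyes and all 24 arrays stood for the gene, and the other 7 probes, of Fasn, Acaca, Acly and Dgat2, are described beside it.

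The arrays measured RNA from whole colon and whole liver of 12 female wild type C57BL/6 mice aged 12 weeks. All dams had received a diet rich in fat and poor in selenium and folate (HF-low) from before mating until weaning. Of the offspring, 6 stayed on HF-low (HF-low-low) and 6 were moved at weaning to HF-suf, a high fat diet whose selenium and folate were adequate (HF-low-suf), so the high fat diet and the low maternal supply were common to every mouse. The mice were fasted and then re-fed before the tissues were taken. The 4 groups, colon HF-low-low, colon HF-low-suf, liver HF-low-low and liver HF-low-suf, held 6 arrays each.

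Fatty acids are built from citrate that leaves the mitochondrion. ATP citrate lyase (Acly) splits it to acetyl-CoA, acetyl-CoA carboxylase 1 (Acaca) makes malonyl-CoA, and fatty acid synthase (Fasn) joins these units into palmitate, which Elovl6 lengthens and the desaturases Scd1 and Scd2 make monounsaturated. Gpam starts and Dgat2 ends the assembly of triglycerides. The transcription factor SREBP-1 (Srebf1) drives the pathway when insulin is high, and Thrsp (Spot 14) is a small nuclear and cytosolic protein that follows lipogenic genes in liver and fat. The pathway is most active in liver and in adipose tissue after a carbohydrate-rich meal.

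Each array held 1 mouse sample in the Cy3 dye and a reference pool in Cy5, with no dye swap. The study describes the pool as intestine and liver RNA of all mice. The mean of 5 skeletal muscle markers lay below the pool on every array (-5.76 to -3.13 in log2), and the make-up of the pool was not tested. The values below are log2 ratios of sample to reference. Only differences between samples of 1 probe can be read from them, not the level of one gene against another. The median signal of an array was 3.75 to 7.10 times its background in Cy3 and 5.13 to 17.7 times in Cy5, and the number of arrays limits the precision. The mean of 5 hepatocyte markers lay between 0.96 and 1.86 on the livers and between -4.35 and -3.75 on the colons in Cy3, the dye the labels give for the mice. The colons also carried fat cell transcripts. The mean of 8 adipocyte markers was 0.63 to 2.44 on the 12 colons and -1.42 to -0.19 on 11 livers, with the liver of HF-low-suf replicate 1 apart at 1.96. The defining markers Adipoq, Cfd, Plin1, Fabp4, Retn and Lipe were well above background on all 12 colons, Lep on 5 and Adrb3 on 0. On the 12 livers, Fabp4 was well above background on 12, Cfd on 6, Lipe on 5, Plin1 and Retn on 2, Adipoq on 1, and Lep and Adrb3 on 0.

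The first comparison was of liver with colon on the 24 arrays, in a fit that took account of both tissues coming from 1 mouse. Of the 10 genes, 8 were higher in liver and 1, Scd2, was lower at an adjusted P under 0.05 in limma, while Acly did not pass. Of all 41174 probes, 19.4% were higher and 19.0% lower in liver under the same threshold. The median difference of the 10 genes was 1.17 on the log2 scale, beside 0.02 over all probes. In whole tissue, fewer cells of a type and less RNA per cell cannot be told apart. The colon values hold the fat cell transcripts given above, and their part in these differences was not tested.

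**Figure D1:**
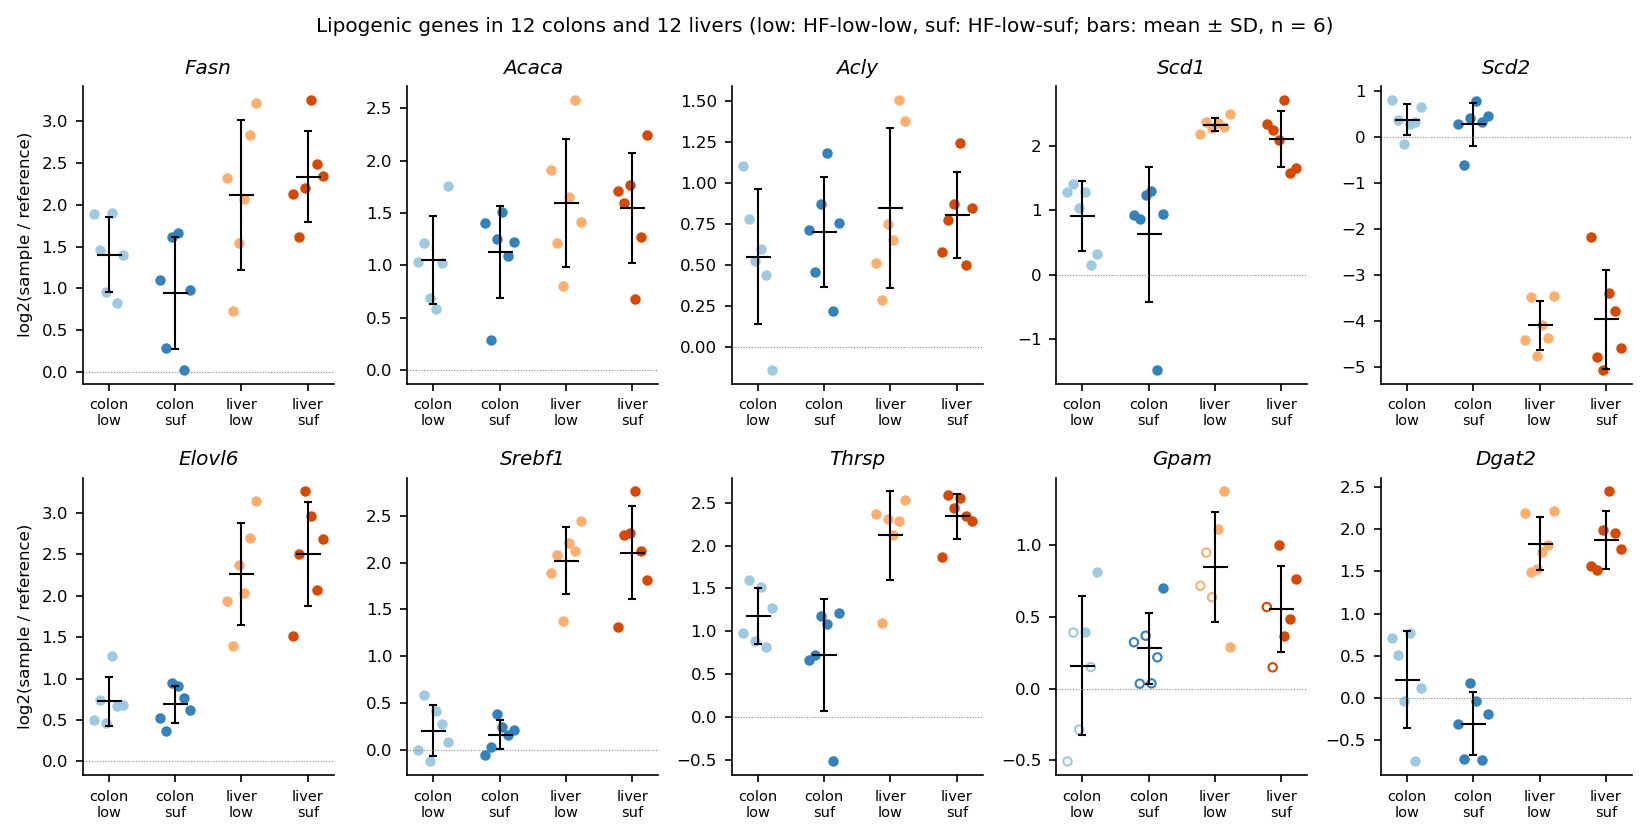
Log2 ratio of sample to reference of each of the 10 genes (main probe) on each of the 24 arrays, 1 panel per gene. Points are single mice, columns are colon and liver under HF-low-low and HF-low-suf, open points were not well above background, and bars are the mean ± SD (n = 6). All livers lie above all colons for Scd1, Elovl6, Srebf1 and Dgat2 and below them for Scd2, and the diets overlap for every gene.

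Srebf1, the transcription factor of the pathway, was measured at 1.32 to 2.77 on the 12 livers (median 2.12) and at -0.13 to 0.58 on the 12 colons (median 0.18). All livers lay above all colons. The difference was 1.88 on the log2 scale (standard error 0.12, adjusted P of 8.19e-13), a 3.69-fold higher level in liver. Arrays that do not overlap in this way were found for 6.55% of 36748 probes with values on all 24 arrays, with liver higher, and for 7.09% with liver lower.

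Thrsp was measured at 1.10 to 2.58 on the livers (median 2.32) and at -0.52 to 1.60 on the colons (median 1.03). The lowest liver was HF-low-low replicate 2 and the lowest colon HF-low-suf replicate 5, and 11 of 12 livers lay above the highest colon. The difference was 1.28 (standard error 0.17, adjusted P of 4.18e-07), or 2.42-fold.

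Acly, which supplies acetyl-CoA, differed little between the tissues. Its log2 ratio was 0.29 to 1.51 on the livers (median 0.76) and -0.14 to 1.19 on the colons (median 0.66), and 9 of 12 livers lay within the range of the colons. The difference was 0.20 (standard error 0.14, adjusted P of 0.319), with a 95% interval from -0.09 to 0.49. With each array centred on its median in place of loess the difference was -0.23, and on the first scan day alone it was -0.11. A second probe of Acly, which was dim, gave -0.03.

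Acaca, which makes malonyl-CoA, was at 0.68 to 2.58 on the livers (median 1.62) and at 0.29 to 1.76 on the colons (median 1.15). The ranges overlapped, and 4 livers lay above the highest colon. The difference of 0.48 (standard error 0.18, adjusted P of 0.0344) was 1.40-fold. Over 23 alternatives the difference ran from 0.15 to 0.93, and this call was lost in 12 of them. Among those 12 were median centring, at 0.15, and leaving out any 1 of 6 mice (HF-low-low replicates 1, 4 and 5 and HF-low-suf replicates 2, 3 and 6), at 0.38 to 0.47. The other probes of Acaca were well above background on at most 3 arrays of a tissue and gave differences of 0.40 (adjusted P of 0.0516), -0.11 and -0.00.

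Fasn, the enzyme that builds palmitate, was at 0.73 to 3.26 on the livers (median 2.26) and at 0.02 to 1.90 on the colons (median 1.25). Of the livers, 9 lay above the highest colon, and in 11 of 12 mice the liver was higher than the colon of the same mouse. The difference was 1.06 (standard error 0.23, adjusted P of 0.000388), or 2.08-fold, and a second Fasn probe gave 0.97 (adjusted P of 3.01e-05). On the 3 slides of the first scan day alone the difference was 0.54 and did not pass (adjusted P of 0.147), and on those of the second it was 1.57.

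The enzymes that finish fatty acids gave larger differences. Elovl6, which lengthens palmitate to stearate, was at 1.39 to 3.26 on the livers (median 2.43) and at 0.37 to 1.28 on the colons (median 0.68). All livers lay above all colons, with a difference of 1.67 (standard error 0.17, adjusted P of 3.41e-09), or 3.19-fold.

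The stearoyl-CoA desaturases Scd1 and Scd2 carry out the same reaction and differed between the tissues in opposite directions. Scd1 was at 1.57 to 2.71 on the livers (median 2.28) and at -1.48 to 1.41 on the colons (median 0.98). All livers lay above all colons, with a difference of 1.44 (standard error 0.21, adjusted P of 2.61e-06), or 2.72-fold. Scd2 was at -5.07 to -2.18 on the livers (median -4.24) and at -0.61 to 0.82 on the colons (median 0.35). All livers lay below all colons, and in each of the 12 mice the liver was lower than the colon, with differences from -5.49 to -2.47 on the log2 scale. The difference of -4.36 (standard error 0.23, adjusted P of 5.11e-15) was a 20.6-fold lower level in liver. The highest liver for Scd2 was HF-low-suf replicate 1, the liver highest in adipocyte markers.

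Since near-identical genes can share signal on an array, the probes of the pair are shown. The middle 30 of 60 bases (bases 16 to 45) of each are printed in lower case. They lie on chromosome 19 of build mm7, the Scd1 probe at chr19:44288770-44288829 on the minus strand and the Scd2 probe at chr19:44200407-44200466 on the plus strand.
Scd1: atctgacagtctcacatctcaacagtgtga
Scd2: ctgcagaggagtatttaagtcctgcacatt
Over their full length the longest run of bases that the probes share was 6, and the best ungapped alignment matched 21 of 60 bases. The probes were compared with each other only. Neither was compared with the transcript of the other gene, so this cannot show whether they share signal.

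Of the triglyceride enzymes, Dgat2, which adds the third fatty acid to diacylglycerol, was at 1.49 to 2.45 on the livers (median 1.79) and at -0.75 to 0.77 on the colons (median -0.03). All livers lay above all colons, with a difference of 1.89 (standard error 0.15, adjusted P of 2.25e-11), or 3.71-fold. The other Dgat2 probes gave 1.69 and 1.73, also with no overlap between the tissues. Gpam, the mitochondrial acyltransferase that starts the assembly, was at 0.15 to 1.38 on the livers (median 0.68) and at -0.51 to 0.82 on the colons (median 0.27). The ranges overlapped, and 4 livers lay above the highest colon. The difference was 0.48 (standard error 0.13, adjusted P of 0.0045), or 1.40-fold. The probe of Gpam was well above background on 7 livers and 3 colons, which compresses its ratios, and with the signals processed by Feature Extraction the difference was 1.30. On the second scan day alone it was 0.35 and did not pass.

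**Figure D2:**
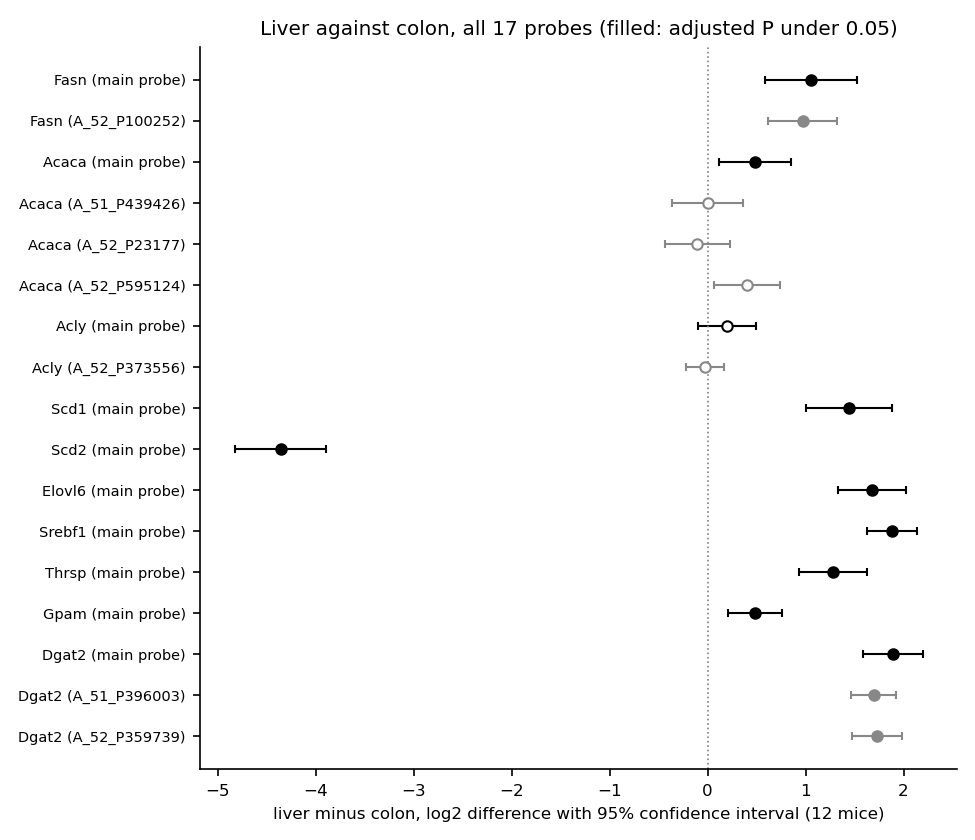
Difference between liver and colon on the log2 scale for all 17 probes of the 10 genes, over 24 arrays of 12 mice, with 95% intervals from limma. Filled points passed an adjusted P of 0.05, and points right of 0 are higher in liver. Dgat2 (1.89) and Srebf1 (1.88) lie farthest right, Scd2 (-4.36) far left, and the interval of Acly (-0.09 to 0.49) crosses 0.

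A list of 44 further genes of lipogenesis and glycerolipid synthesis was read the same way. Of these, 22 were higher in liver, 10 lower and 12 not called, with a median difference of 0.41 on the log2 scale. The list was ordered by step. In the step of glucose entry and glycolysis, Gckr was higher in liver by 7.13 (standard error 0.11) and the pyruvate kinase Pklr by 1.46 (standard error 0.18). Of 12 genes of transcriptional control, 6 were higher and 3 lower, and the largest differences were those of Insig2 (2.90), which retains SREBP in the endoplasmic reticulum, the oxysterol receptor Nr1h3 (2.33) and the repressor Nr0b2 (2.09). Gckr was well above background on 3 of 12 colons and Nr0b2 on 2, so their sizes rest on dim spots. With the signals processed by Feature Extraction they were 8.41 and 3.99, and under median centring Nr0b2 was 1.38.

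Among the other steps, acetyl-CoA and NADPH supply did not share 1 direction. Of its 7 genes, 2 were higher and 3 lower in liver. G6pdx (-1.71) and Tkt (-1.31), enzymes of the pentose phosphate pathway, were lower, whereas malic enzyme, Me1 (1.15), was higher. Of 3 genes of malonyl-CoA and palmitate synthesis, 1 was called, Mcat of the mitochondrial pathway (1.05). Of 8 elongases and desaturases 6 were higher and 1 lower, led by Fads2 (2.94) and Elovl5 (2.83), which act on polyunsaturated fatty acids, and by Elovl2, whose probe was well above background on 0 colons and was at least 50.9-fold higher in liver. Of 11 genes of glycerolipid assembly 4 were higher, such as Agpat3 (2.17), and 3 lower, such as Agpat1 (-1.62) and Mogat2 (-1.50). With the signals processed by Feature Extraction Agpat1 was -2.26 and Mogat2 -2.15. Each gene named here passed at an adjusted P of at most 5.20e-06, the value of Me1.

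The second comparison was of the diets within each tissue, on its 12 arrays, with the study's threshold of an unadjusted P under 0.01 and a fold change over 1.5. Differences are given as HF-low-suf minus HF-low-low, as the labels and the dyes set it. The study counts its fold changes the same way, but it describes most of its diet-responsive genes as decreased by supplementation. Here most probes that passed were higher in HF-low-suf, 39 of 47 in liver and 66 of 69 in colon. The files do not settle which is right, so the sign of each diet difference below holds only if the labels do.

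In liver, 0 of the 10 genes passed, beside 0.114% of all 41174 probes. At an unadjusted P under 0.05 in limma the count was also 0 of the 10, and 880 of all probes. Over all probes 0 passed after Benjamini-Hochberg adjustment. Fasn was at 0.73, 2.19 and 3.22 (lowest, median and highest) in liver HF-low-low and at 1.61, 2.28 and 3.26 in liver HF-low-suf. The groups overlapped, with a difference of 0.22 (P of 0.56 in limma, 95% interval -0.58 to 1.02), and HF-low-suf was higher on 3 of the 6 slides.

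Scd1 was at 2.18, 2.32 and 2.49 in liver HF-low-low and at 1.57, 2.16 and 2.71 in HF-low-suf. The HF-low-low livers lay within the range of the HF-low-suf livers, and the difference was -0.22 (95% interval -0.61 to 0.16; two-sided exact permutation P of 0.260). Gpam gave -0.29 (exact permutation P of 0.173), which was the largest difference in size among the 10 in liver. Elovl6 gave 0.24, Thrsp 0.22, Scd2 0.13, Srebf1 0.08, Dgat2 0.05, Acly -0.04 and Acaca -0.05. The widest interval was that of Scd2, from -0.78 to 1.04, and without HF-low-suf replicate 1 its difference was -0.22.

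**Figure D3:**
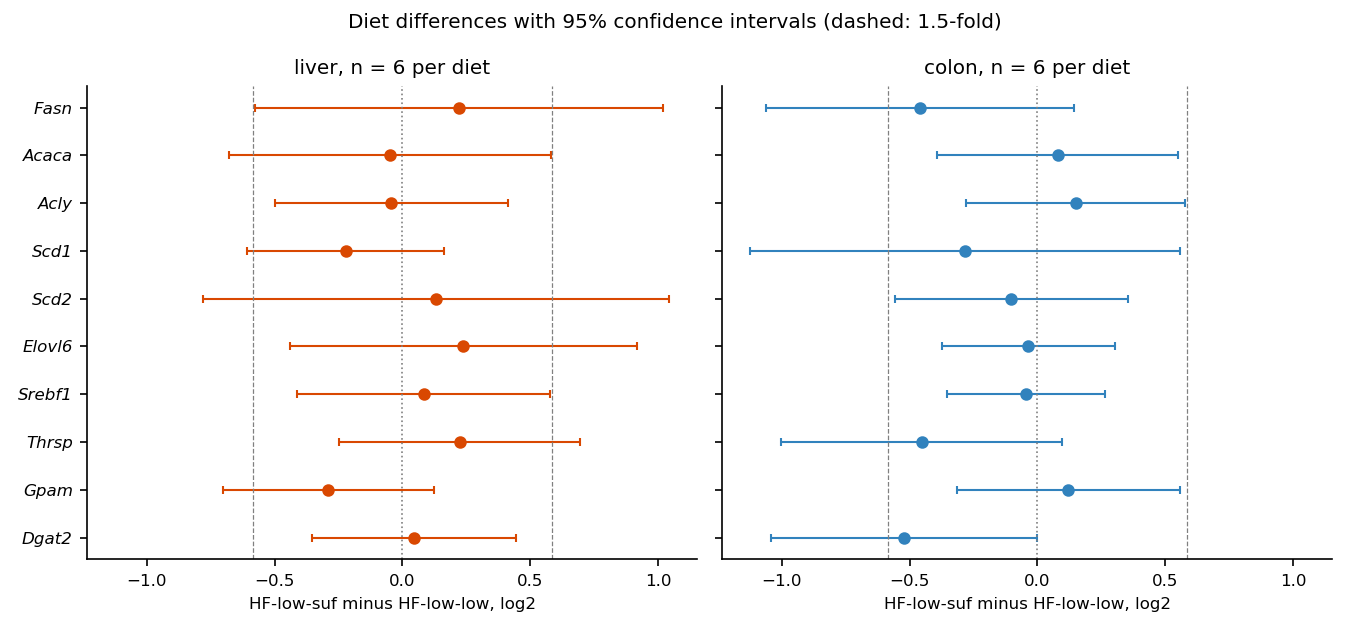
Difference between the diets (HF-low-suf minus HF-low-low) of the 10 genes on the log2 scale in liver and in colon, with 95% intervals from limma, 6 mice per diet, and dashed lines at a 1.5-fold change. Points right of 0 are higher in HF-low-suf. All intervals in liver cross 0, and in colon that of Dgat2 (-1.04 to -0.00) ends at it.

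In colon, 0 of the 10 genes passed as well, beside 0.168% of all probes. At an unadjusted P under 0.05 in limma there was 1, Dgat2, and 1233 of all probes, and 0 of all probes passed Benjamini-Hochberg adjustment. Dgat2 was at -0.75, 0.31 and 0.77 in colon HF-low-low and at -0.74, -0.25 and 0.17 in colon HF-low-suf. The groups overlapped. The difference was -0.52 (unadjusted P of 0.0490 in limma, two-sided exact permutation P of 0.0996), and on the 6 slides HF-low-suf was lower on 4. Without HF-low-low replicate 5, the lowest colon of its group, the difference was -0.72 and passed the threshold. The other Dgat2 probes gave smaller differences, -0.27 (P of 0.187 in limma) and -0.19 (P of 0.383).

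Fasn and Thrsp in colon had differences of like size. Fasn was at 0.82, 1.43 and 1.90 in HF-low-low and at 0.02, 1.04 and 1.67 in HF-low-suf, a difference of -0.46 (exact permutation P of 0.203). Thrsp was at 0.82, 1.13 and 1.60 in HF-low-low and at -0.52, 0.90 and 1.21 in HF-low-suf, a difference of -0.45 (exact permutation P of 0.143). For both genes HF-low-suf was lower on 5 of 6 slides, and the groups overlapped.

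A single colon was lowest for several of the genes. HF-low-suf replicate 5 gave the lowest colon value of Fasn (0.02), Scd1 (-1.48) and Thrsp (-0.52), and it also had the lowest mean of the adipocyte markers among colons (0.63) and the highest Cy5 signal over background of all arrays (17.7). Their part in its values was not tested. With it the colon difference of Scd1 was -0.28, and without it 0.14. The other differences in colon were 0.15 for Acly, 0.12 for Gpam, 0.08 for Acaca, -0.04 for Srebf1, -0.04 for Elovl6 and -0.10 for Scd2.

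Whether the diet difference itself differed between liver and colon was tested by an interaction term over all 24 arrays. At an adjusted P under 0.05, 0 of the 10 genes and 0% of all 41174 probes passed, and at an unadjusted P under 0.05 the counts were 0 and 2643. The smallest unadjusted P in limma among the 10 was that of Thrsp, whose liver difference was higher than its colon difference by 0.68 (P of 0.0550, adjusted P of 0.783), followed by Dgat2 at 0.57 (P of 0.0645), Gpam at -0.41 (P of 0.136) and Fasn at 0.68 (P of 0.146). Of the 44 further genes, 0 passed in either tissue, and 0 had an unadjusted P under 0.05. Their largest differences were those of Pnpla3, a lipase-like protein of lipid droplets, at 0.80 in liver and -0.52 in colon.

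The third question was how the genes varied together over the 12 livers. Pearson correlation of each gene with Fasn was tested by 100000 permutations of the mice. None of the other 9 genes passed Benjamini-Hochberg adjustment over 37173 probes, and 4 of 9 had a positive correlation at an unadjusted permutation P under 0.05, beside 3.69% of all probes. The median correlation of the 9 genes was 0.44, beside 0.02 over all probes. The count of 4 depended on the setting. It was 1 without the livers most extreme in Fasn, beside 5.42% of all probes. With slide means removed (a replicate block) it was 1, beside 0.955%, but the smallest permutation P over all probes was then 0.0313. On the first and second scan days the count was 0 and 3, beside 0.547% and 4.06%. With any 1 mouse left out it was 3 or 4, beside 1.7% to 8.1%, and without background correction 6, beside 1.54%. With Srebf1 in place of Fasn it was 1, beside 4.72%, and with Scd1 it was 0, beside 0.113%. Under median centring it was 5, beside 17.3% of all probes.

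**Figure D4:**
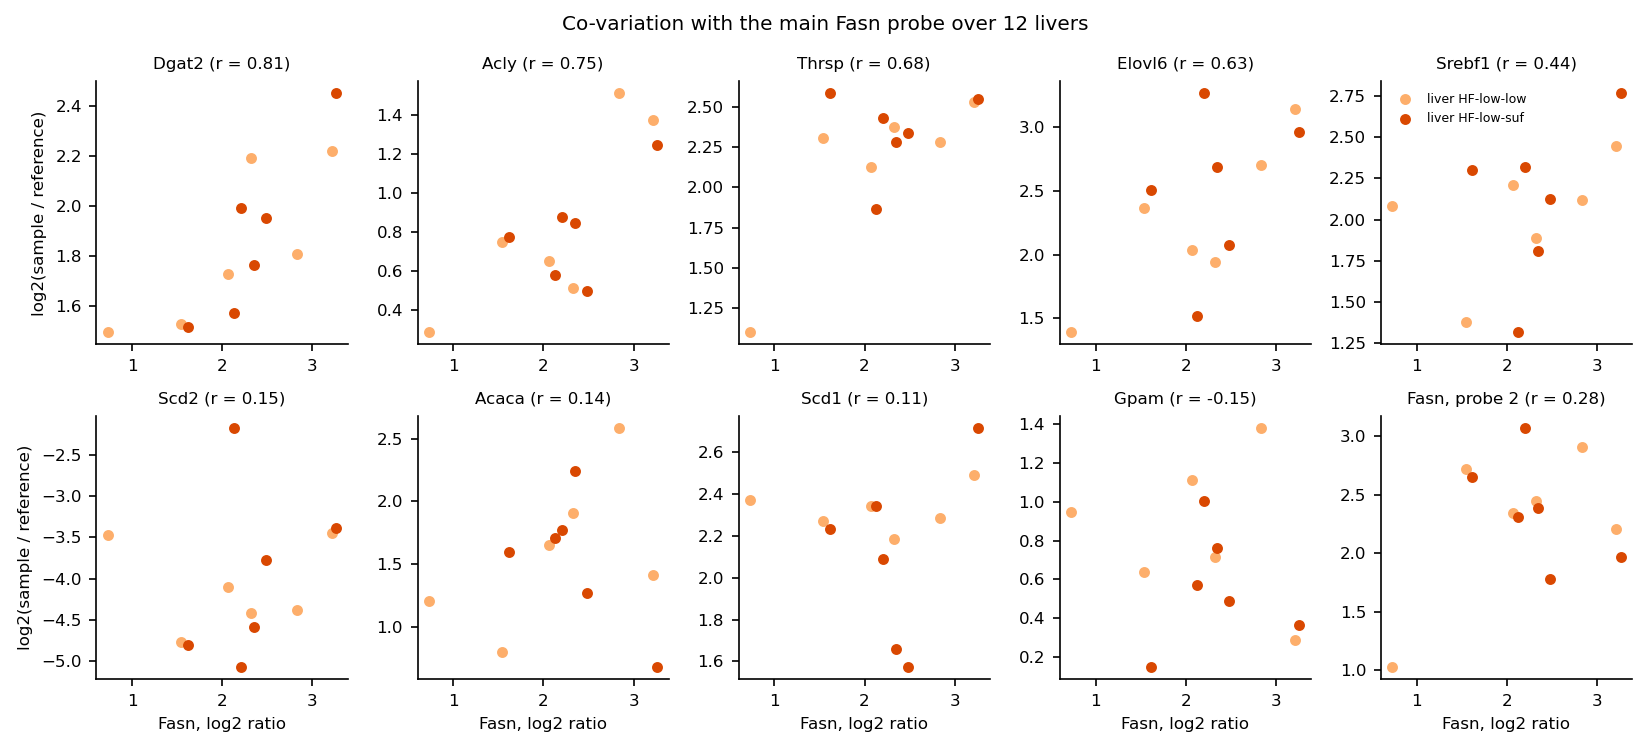
Log2 ratio to the reference of the other 9 genes and of the second Fasn probe (vertical axes) against that of the main Fasn probe (horizontal axes) over the 12 livers, 1 point per mouse and 1 panel per probe. Dgat2 follows Fasn most closely (r of 0.81), and the second Fasn probe does so with an r of 0.28.

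Dgat2 had the highest correlation with Fasn, at an r of 0.81 (permutation P of 0.00099, adjusted P of 0.313) and a rho of 0.87 (permutation P of 0.00054). When the 2 livers with the most extreme Fasn values were left out its r was 0.74, and on the first and second scan days it was 0.71 and 0.87. The other probes of Dgat2 gave 0.72 and 0.47. Acly followed at an r of 0.75 (permutation P of 0.0042, adjusted P of 0.413) and a rho of 0.59, with 0.62 without the same livers and 0.52 and 0.78 on the scan days.

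Elovl6 had an r of 0.63 (permutation P of 0.0278, adjusted P of 0.495) and a rho of 0.60, and 0.36 without the 2 farthest livers. Thrsp had an r of 0.68 (permutation P of 0.0188, adjusted P of 0.473) and a rho of 0.41. Without the 2 farthest livers the r of Thrsp was 0.12, and without HF-low-low replicate 2 alone, the liver lowest in both genes, it was 0.28. Over all livers the relation rests on those samples, while on the first and second scan days it was 0.69 and 0.93, and HF-low-low replicate 2 belongs to the first. The farthest livers were HF-low-low replicate 2 (Fasn at 0.73) and HF-low-suf replicate 4 (3.26). On the latter array 8.81% of spots were marked as outliers, the highest share of all arrays.

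Srebf1 had an r of 0.44 with Fasn (permutation P of 0.146), with -0.13 and 0.74 on the scan days. The correlations were 0.15 for Scd2, 0.14 for Acaca, 0.11 for Scd1 and -0.15 for Gpam. That of Gpam turned to 0.66 without background correction, 0.50 with the signals processed by Feature Extraction and 0.47 with Cy3 alone, and that of Scd2 turned to -0.18, -0.17 and -0.33. Those of Acaca and Scd1 differed in sign between the scan days, at 0.69 and -0.40 for Acaca and at -0.66 and 0.61 for Scd1. Over the 45 pairs of the 10 genes the correlation had a median of 0.14 and ran from -0.46 to 0.81. After Fasn with Dgat2 the highest were Acly with Elovl6 (0.79), Elovl6 with Thrsp (0.75) and Acly with Fasn.

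Both Fasn probes target the same transcript, yet over the livers they were only weakly correlated, at an r of 0.28 (rho of -0.13, permutation P of 0.374), and at -0.27 without the 2 farthest livers. Over the colons their r was 0.76. The correlations above hold for the main probe, and all genes on an array share its loess curve, its depth of signal and its reference.

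Over the 12 colons, read after the livers had been seen, 0 of 9 genes passed adjustment and 4 of 9 had a positive correlation with Fasn at an unadjusted permutation P under 0.05, beside 6.32% of all probes. Dgat2 was again highest, at an r of 0.89 (permutation P of 0.00018, adjusted P of 0.193) and a rho of 0.90, and it was 0.88 without HF-low-suf replicate 5. Thrsp had an r of 0.77, Scd1 0.73 and Scd2 0.62. Without that colon they were 0.61, 0.53 and 0.77. Without the 2 colons most extreme in Fasn, HF-low-suf replicates 2 and 5, the count was 1 of 9, beside 5.64% of all probes. That gene was Dgat2, at an r of 0.86.

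The mean of the adipocyte markers was set against the 10 genes in the same way in each tissue, and whether the tissues differ was not tested. Over the colons its correlation was 0.93 for Thrsp (permutation P of 0.00022), 0.83 for Scd1, 0.69 for Fasn and 0.66 for Dgat2, and 0.09 for Scd2. These were 4 of 10 genes at an unadjusted P under 0.05, beside 3.67% of all probes, and after adjustment 0 of 10 genes and 0% of all probes passed. Without HF-low-suf replicate 5 they were 0.78, 0.41, 0.43 and 0.62, and 2 of 10 were at an unadjusted P under 0.05, beside 1.91% of all probes. Over the livers the same mean had a correlation of 0.01 with Fasn and -0.19 with Dgat2. Without HF-low-suf replicates 1 and 2 these were 0.44 and 0.63. They were 0.26 and -0.33 on the first scan day and 0.75 and 0.86 on the second. Over all 12 livers 1 of 10 genes, Scd2, was at an unadjusted P under 0.05, beside 3.84% of all probes, with an r of 0.74 (adjusted P of 0.452). After adjustment 0 of 10 genes passed, beside 0.0377% of all probes, and for Scd2 without HF-low-suf replicate 1 the r was 0.29. Without HF-low-suf replicates 1 and 2 the r of Scd2 was 0.73, and on the scan days it was 0.81 and 0.93. Gpam ran the other way, at an r of -0.43 (permutation P of 0.169) and a rho of -0.81 (permutation P of 0.00203, adjusted P of 0.110), and at an r of -0.83 without HF-low-suf replicate 1. The part of fat cells in any of these correlations was not tested.

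**Figure D5:**
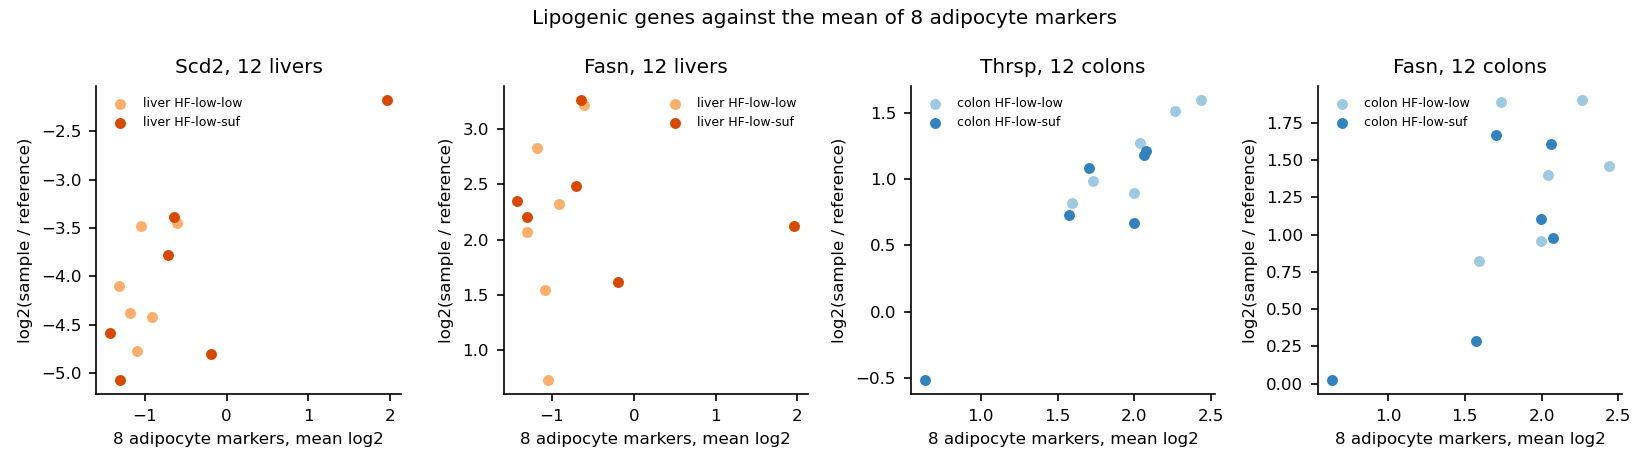
Mean log2 ratio of 8 adipocyte markers on the horizontal axis against the log2 ratio of Scd2 and Fasn over the livers and of Thrsp and Fasn over the colons on the vertical axis, 1 point per array. Colons lie between 0.63 and 2.44 in the marker mean, 1 liver (HF-low-suf replicate 1) lies at 1.96, and Thrsp rises with the marker mean over the colons (r of 0.93).

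The genes whose pattern over the 12 livers was most like that of Fasn were named from 7163 genes with a probe well above background on all livers. Among the 8 most like it were Tom1l1 (r of 0.93), Slc17a3 (0.88), Mlxipl (0.87), Plekha5 (0.87), Ecm1 (0.85), Adipor2 (0.84) and Aqp8 (0.84). None of the 8 passed adjustment over all probes, and the lowest adjusted P was 0.0929, for Tom1l1 and Plekha5, at an unadjusted permutation P of 1e-05, the smallest that 100000 permutations can give. Their correlations with Fasn over the colons ran from -0.66 for Slc17a3 to 0.73 for Adipor2. Mlxipl, the carbohydrate response factor ChREBP, is also 1 of the 44 further genes. Of these, 0 passed adjustment, and 5 had a positive correlation with Fasn at an unadjusted permutation P under 0.05, namely Mlxipl, Mid1ip1, Idh1, Acss2 and Me1, beside 3.69% of all probes. A negative one was found for 2 of 44, Agpat6 (-0.80) and Nr0b2 (-0.73), a share no higher than the 5.91% of all probes. Mid1ip1 (0.70), a relative of Thrsp, binds acetyl-CoA carboxylase, and Acss2 (0.66) and Idh1 (0.67) supply acetyl-CoA and NADPH.

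The promoters of the lipogenic genes are known for CCAAT boxes, which bind NF-Y, and GC boxes, which bind Sp1, both partners of SREBP. Windows of 250 bases before the start of transcription were taken from RefSeq (GRCm38.p6) for 7 of the 10 genes, not Scd1, Scd2 and Dgat2, and searched for both boxes on both strands. The letters searched were CCAAT or, read on the other strand, ATTGG for the former. For the latter they were GGGCGG and its reverse complement. The 7 genes had 10 windows, since Srebf1 has 3 start sites and Gpam 2. A CCAAT box was found in 5 of the 10, of Fasn, Thrsp, Srebf1 (2 windows) and Gpam (1), and a GC box in 4, of Acly, Srebf1 (2) and Gpam (1). Of all 32851 such windows, 33.8% held a CCAAT box and 32.7% a GC box. The windows of Fasn, at chr11:120824548-120824797, and of Thrsp, at chr7:97417551-97417800, are shown because both hold more than 1 CCAAT box and no GC box, whereas Acly holds 4 GC boxes. Both are printed on the minus strand, the strand of the gene, with the CCAAT boxes of either strand in capitals.
Fasn: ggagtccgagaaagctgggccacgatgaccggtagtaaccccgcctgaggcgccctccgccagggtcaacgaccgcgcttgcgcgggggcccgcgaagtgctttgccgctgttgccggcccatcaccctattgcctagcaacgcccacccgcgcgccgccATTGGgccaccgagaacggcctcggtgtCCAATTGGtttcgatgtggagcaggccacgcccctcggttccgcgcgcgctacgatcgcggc
Thrsp: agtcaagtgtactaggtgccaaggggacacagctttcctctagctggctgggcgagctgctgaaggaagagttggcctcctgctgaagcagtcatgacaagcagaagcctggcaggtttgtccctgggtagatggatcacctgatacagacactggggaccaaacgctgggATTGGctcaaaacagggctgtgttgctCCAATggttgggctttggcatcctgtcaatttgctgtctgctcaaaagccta
In Fasn the boxes began 90, 62 and 59 bases before the start, and the last 2 overlap. In Thrsp they began 79 and 52 bases before it. A match describes the letters of the window only.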

How the data were processed

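The authors deposited 1 Feature Extraction (version 9.5.3.1) file per array, with probe positions in build mm7. The intensity values used are the deposited mean signals of each spot in Cy3 and Cy5 and their local background medians, before any correction or normalization between dyes. In limma 3.58.1 on R 4.3.3, background was removed with normexp (offset 50) and each array was then loess normalized. Of 45018 spots, 1639 control spots were left out, and so were spots that the software marked as outliers. Repeated spots were averaged to 41174 probes. The local background is low, so ratios of dim probes are compressed. A probe is called well above background where the software marked it so in Cy3. A list of the arrays and the authors' own ratios were not used.

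Groups follow the labels. The diets were tested in limma on the 12 arrays of each tissue at the threshold of the study's methods, and also by exact permutation of the mice (924 assignments). Liver and colon were compared over 24 arrays with a random effect of the mouse (duplicateCorrelation with statmod 1.5.0, at 0.158), since the labels give both tissues of a mouse. Same-numbered mice deviated together between tissues by an r of -0.03 to 0.28. P-values were adjusted over all probes by Benjamini-Hochberg, and the fits were tested on simulated data.

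The 10 genes, the 44 further genes and the marker lists were chosen with earlier results of these data known. The text names all 10 genes with every probe, of the 44 the called genes by step and the 3 with the largest difference where none or more than 3 was called, and the 8 genes most like Fasn over the livers, and 2 genes that this rule selects are not reported here. The alternatives were median centring, uncorrected background, the software's own processed signals, Cy3 alone, outlier spots kept and a filter on dim probes. Others were each scan day, each mouse left out, 2 mice left out, other blocks and other measures of correlation. The 2 mice were HF-low-suf replicates 1 and 2, with the livers highest in adipocyte (1.96) and in skeletal muscle markers (-3.13). The fits left out both tissues of these mice. For correlations with Fasn the 2 livers most extreme in Fasn were also left out. The comparisons over colons and with the adipocyte markers were chosen after seeing the data. Sign changes of values without a call were counted as reversals when the shift exceeded 1 standard error. Probe and promoter sequences come from the array files and from RefSeq tables.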

Additional observations from a re-analysis of the deposited data

Results flagged for a closer look

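In 44 groups of 6 arrays, 8 held a sample that stood apart from the other 5 by a gap above Dixon's critical value, and chance gives about 1 such group in 20. All values are log2 ratios to the reference. In colon HF-low-suf, replicate 5 was lowest for Scd1 (-1.48, the nearest other array at 0.86), for Thrsp (-0.52, nearest 0.67) and for the mean of the adipocyte markers (0.63, nearest 1.57). In the same group, replicate 2 was lowest for Acaca (0.29, nearest 1.09) and for Scd2 (-0.61, nearest 0.30). In colon HF-low-low, replicate 4 was highest for Elovl6 (1.28, nearest 0.75). In liver HF-low-low, replicate 2 was lowest for Thrsp (1.10, nearest 2.12). In liver HF-low-suf, replicate 1 was highest for the mean of the adipocyte markers (1.96, nearest -0.19).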

How the results depend on the processing

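Between liver and colon, 9 of the 10 genes passed, with 7 to 9 over all alternatives, 8 to 9 when a mouse was left out, and 8 with no replicate block or with the mouse as a fixed block, where Acaca did not pass. Scd1, Scd2, Elovl6, Srebf1, Thrsp and Dgat2 kept their direction and call in all 23 alternatives. Acly turned to -0.23 under median centring and to -0.11 on scan day 1. The signals processed by Feature Extraction moved the median of all probes in this comparison by -0.21, and other scalings by less than 0.1.

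Between the diets, the count of the 10 genes was 0 in liver and in colon in all alternatives, with the replicate block also 0, except in colon at an unadjusted P under 0.05 with no fold limit, 1, and when a mouse was left out, 0 to 1. In liver, scan day 1 turned Acaca to 0.39 and Acly to 0.23. In colon, it turned Acly to -0.12, scan day 2 turned Gpam to -0.14, median centring turned Srebf1 to 0.11, leaving out HF-low-suf replicate 5 turned Scd1 to 0.14 (range with any mouse left out -0.44 to 0.14), and leaving out HF-low-suf replicates 1 and 2 turned Scd2 to 0.12. The interaction, the diet difference in liver minus that in colon, turned to 0.38 for Acaca and 0.35 for Acly on scan day 1. For Scd2 it turned to -0.22 without those 2 mice. Over all probes, the 47 in liver and 69 in colon became 2 and 26 under median centring, 12 and 13 without background correction, and 24 and 19 with Cy3 alone. They were 2 and 3 among probes well above background, 131 and 92 with the replicate block, and 9 to 304 and 23 to 257 when a mouse was left out. On scan day 1 they were 59 and 278, and on scan day 2 they were 2 and 104. The share of calls higher in HF-low-suf, 83.0% in liver and 95.7% in colon, was 61.4% and 79.2% with the signals processed by Feature Extraction, 70.8% in liver with Cy3 alone and 80.8% in colon under median centring. In colon it was 100% with Cy3 alone or without background correction, 80.6% and 55.8% on the scan days, and 28.6% without HF-low-suf replicates 1 and 2, the only alternative run in which most colon calls were lower in HF-low-suf. In liver most calls were lower on scan day 1, with 44.1% higher, and both of the 2 probes called on scan day 2 and of the 2 called among probes well above background were lower. If the diet labels were turned, these would be shares lower in HF-low-suf.

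Correlations with Fasn over the livers turned for Acaca (-0.40 on scan day 2), Srebf1 (-0.13) and Scd1 (-0.66 on scan day 1), Scd2 (-0.18 without background correction, -0.17 with the processed signals, -0.33 with Cy3 alone) and Gpam (0.66, 0.50 and 0.47 under the same settings, and 0.16 without the 2 farthest livers). Same-slide arrays of the diets deviated together, at an r over 0.1, in 2 of 6 pairs in liver and 3 of 6 in colon. The r ran from -0.50 to 0.53 in liver and from -0.09 to 0.24 in colon. The causes were not tested. With 6 mice per diet, the 95% intervals in liver leave room for differences of up to 1.04 on the log2 scale.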
